A study of Mus musculus with 3 samples.

Results

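Progranulin, its receptor and its processing partners were followed through the cell classes of 3 mouse livers. The members are 5 genes chosen by exact symbol, namely Grn, Psap, Sort1, Slpi and Tmem106b, among 32285 genes in the count matrix, of which 18613 had at least 1 UMI (unique molecular identifier, 1 captured transcript) in a kept cell barcode. All 3 mice were males of the C57BL/6 strain, 9 weeks old, without Ifih1 (Ifih1-/-), the gene of the RNA sensor MDA5, and positive for Alb-Cre, a recombinase driven by the albumin promoter in hepatocytes. They differed in the Adar1 genotype, which was flox/flox, wt/flox or wt/wt, with 1 library each. The series asks what loss of Adar1, the enzyme that edits double-stranded RNA, does in livers with no Ifih1, and its title names a route from hepatocytes to macrophages through progranulin (PGRN) and EGFR. Liver cells were released by collagenase, pelleted at low speed, cleared of red cells and passed over Percoll, which favours hepatocytes, and their 3' ends were counted in droplets.

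Progranulin is a secreted glycoprotein that is also carried to lysosomes, where it is cut into granulins that keep lysosomal enzymes working. Sortilin, the product of Sort1, binds progranulin at the cell surface and takes it to lysosomes, and prosaposin, the product of Psap, binds progranulin and carries it there by its own receptors. Slpi encodes secretory leukocyte protease inhibitor, which binds progranulin and shields it from elastase of neutrophils, and Tmem106b encodes a lysosomal membrane protein known as a modifier of disease in carriers of progranulin mutations. In the liver, macrophages are a well known source of progranulin.

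The promoters of 3 members are shown because they differ in the short motifs they hold. Sequences are those of RefSeq on GRCm38.p6, from 250 bases before to 50 bases after the start, 5′ to 3′ on the gene's strand, for 4 of the 5 members. Capitals mark a match on either strand to the GC box GGGCGG or the E-box CACGTG. The Grn promoter at chr11:102430257-102430556 (plus strand) has a GC box that begins 46 bases before the start, at -46.
Grn: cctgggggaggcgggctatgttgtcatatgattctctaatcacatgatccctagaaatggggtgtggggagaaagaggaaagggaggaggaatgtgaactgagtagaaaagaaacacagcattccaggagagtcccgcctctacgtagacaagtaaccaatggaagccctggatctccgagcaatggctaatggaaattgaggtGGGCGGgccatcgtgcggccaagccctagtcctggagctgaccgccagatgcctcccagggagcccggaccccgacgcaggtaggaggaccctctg
The Psap promoter at chr10:60277378-60277677 (plus strand, the first of its entries) has the GC box just past the start, at position 5.
Psap: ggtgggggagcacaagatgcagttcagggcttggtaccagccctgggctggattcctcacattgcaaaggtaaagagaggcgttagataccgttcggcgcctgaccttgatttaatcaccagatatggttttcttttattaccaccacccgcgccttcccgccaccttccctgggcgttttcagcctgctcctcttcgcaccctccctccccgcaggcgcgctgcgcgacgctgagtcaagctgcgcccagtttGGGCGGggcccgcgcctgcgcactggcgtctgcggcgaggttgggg
The Slpi promoter at chr2:164356458-164356757 (minus strand) has an E-box at -146.
Slpi: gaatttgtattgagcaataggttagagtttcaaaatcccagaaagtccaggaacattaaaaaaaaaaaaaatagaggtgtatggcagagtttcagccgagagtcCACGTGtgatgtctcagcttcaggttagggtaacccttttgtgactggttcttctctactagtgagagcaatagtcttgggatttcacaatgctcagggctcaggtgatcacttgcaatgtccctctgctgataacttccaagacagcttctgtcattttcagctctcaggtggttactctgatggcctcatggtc
Of all 32851 mouse promoters of this length, 35.7% hold GGGCGG and 7.15% hold CACGTG. Also searched were TCACGTGA, the core of the lysosomal gene element, which contains the E-box and is in 0.974% of promoters, and the interferon element, read as GAAA repeated after any 2 bases, which is in 3.44%. Neither was found in these windows, nor in that of Tmem106b at chr6:13069509-13069808 (plus strand). A match is a string of letters and no evidence of a bound factor. Which start the counted transcripts used cannot be read from 3' tags. The Psap table has a second entry further downstream, with no match, and the gene intervals of Grn and Slpi given below, from another annotation, begin upstream of the start taken here.

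The libraries held 10000 barcodes each, with 10756790 UMIs in flox/flox, 10067929 in wt/flox and 9744380 in wt/wt, and 9772, 9920 and 9878 of their barcodes were kept. The median kept barcode had 932 UMIs in flox/flox, 898.5 in wt/flox and 853 in wt/wt, with a median mitochondrial share of 7.05%, 4.07% and 4.86%. Between 20 and 32 barcode sequences were shared by each pair of libraries. Clusters were named from marker genes, with the members left out of the genes that formed them. Hepatocyte-like barcodes numbered 7752 in flox/flox, 7199 in wt/flox and 8147 in wt/wt, and Kupffer cell-like barcodes, the resident liver macrophages, 296, 302 and 219. The T cell-like cluster was also led by natural killer genes, the B cell-like cluster by plasma cell genes, and the monocyte or macrophage-like cluster also by Xcr1 of conventional dendritic cells. Adar (ENSMUSG00000027951), the targeted gene, stood at 35.6, 16.9 and 10.3 CPM (UMIs of the gene per 1000000 UMIs of the class) in hepatocyte-like barcodes of flox/flox, wt/flox and wt/wt, which goes against the label of the library labelled flox/flox. The tags come from 3' ends and the floxed exons are not given in the sources used here, so that these levels do not check the labels. Ifih1 had 0 UMIs in flox/flox, 1 in wt/flox and 0 in wt/wt. Each genotype has 1 library, so that neither a replicate error nor a test can be given, and all intervals in parentheses are at 95% and cover counting error only.

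Grn (ENSMUSG00000034708, mm10 chromosome 11, 102430315 to 102437048, plus strand) had most of its UMIs, free RNA included, in 2 classes. These were Kupffer cell-like barcodes because of their high level and hepatocyte-like barcodes because of their number. In Kupffer cell-like barcodes its level was 1955 CPM (1814 to 2103) in flox/flox, 1546 CPM (1421 to 1680) in wt/flox and 1364 CPM (1225 to 1514) in wt/wt. In hepatocyte-like barcodes it was 121 CPM (114 to 129; 989 UMIs), 68.6 CPM (62.6 to 75.0; 482 UMIs) and 78.5 CPM (72.4 to 85.0; 607 UMIs). Kupffer cell-like barcodes thus stood 16.2-fold above hepatocyte-like barcodes in flox/flox (14.7 to 17.8), 22.5-fold in wt/flox (19.9 to 25.5) and 17.4-fold in wt/wt (15.2 to 19.8). Hepatocyte-like barcodes nevertheless held 44.4% of all Grn UMIs in flox/flox, 34.3% in wt/flox and 49.5% in wt/wt. Kupffer cell-like barcodes, with 3.47%, 3.64% and 2.68% of all UMIs, held 32.2%, 39.9% and 28.7% of the Grn UMIs. No free RNA was taken away from these shares. T cell-like barcodes, used below as a guide to background, had 46.2, 42.8 and 50.0 CPM of Grn. The part of such background in the hepatocyte-like share was not tested. A Grn UMI was seen in 81.4% of Kupffer cell-like barcodes in flox/flox, 77.2% in wt/flox and 77.2% in wt/wt, and in 11.7%, 6.40% and 7.07% of hepatocyte-like barcodes. After each barcode was thinned to 1000 UMIs the hepatocyte-like shares were 12.1%, 6.16% and 8.52%. T cell-like barcodes, which should hold little Grn of their own, had a Grn UMI in 4.60%, 4.13% and 4.91%, and a share of this size is read as the background of free RNA. Median depths were 904, 862 and 825 UMIs in hepatocyte-like and 967, 962 and 986.5 UMIs in T cell-like barcodes. An Alb UMI was in 99.7% or more of barcodes of each class compared, so that hepatocyte-like barcodes cannot be told apart from droplets of free hepatocyte RNA.

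The order of classes for Grn was the same at its upper end in each library. Kupffer cell-like barcodes came before plasmacytoid dendritic cell-like barcodes, which had 722 CPM in flox/flox, 632 CPM in wt/flox and 652 CPM in wt/wt. Stellate cell or fibroblast-like barcodes followed with 487, 411 and 303 CPM, and both steps were larger than the counting error. Clec4f, a Kupffer cell marker, stood at 193, 297 and 176 CPM in the stellate cell or fibroblast-like class, against 2061, 1722 and 2027 CPM in the Kupffer cell-like class, and its part in the Grn level there was not tested. Monocyte or macrophage-like barcodes had 423 CPM in flox/flox, 197 CPM in wt/flox and 152 CPM in wt/wt, and endothelial cell-like barcodes 288, 148 and 197 CPM. Only in flox/flox did the counting intervals separate the monocyte or macrophage-like class from the endothelial one. Below these, neighbours among the hepatocyte-like, neutrophil-like, B cell-like, T cell-like and cycling classes, between 27.5 and 121 CPM, could not be separated in any library. Some classes further apart could. In T cell-like barcodes Grn was 0.38 of the hepatocyte-like level in flox/flox (0.25 to 0.56) and 0.62 in wt/flox (0.39 to 0.96). In wt/wt it was 0.64 (0.37 to 1.03). B cell-like barcodes had 0.59 (0.33 to 0.98), 0.40 (0.16 to 0.83) and 0.54 (0.20 to 1.19) in flox/flox, wt/flox and wt/wt. Of these intervals only those of wt/wt held 1. Grn in T cell-like barcodes, at 46.2, 42.8 and 50.0 CPM, was near the 58.2, 41.5 and 47.7 CPM that free hepatocyte RNA would give at the rate of Alb. These estimates scale the hepatocyte-like Grn level itself, so that they cannot show how much of that level is free RNA.

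**Figure D1:**
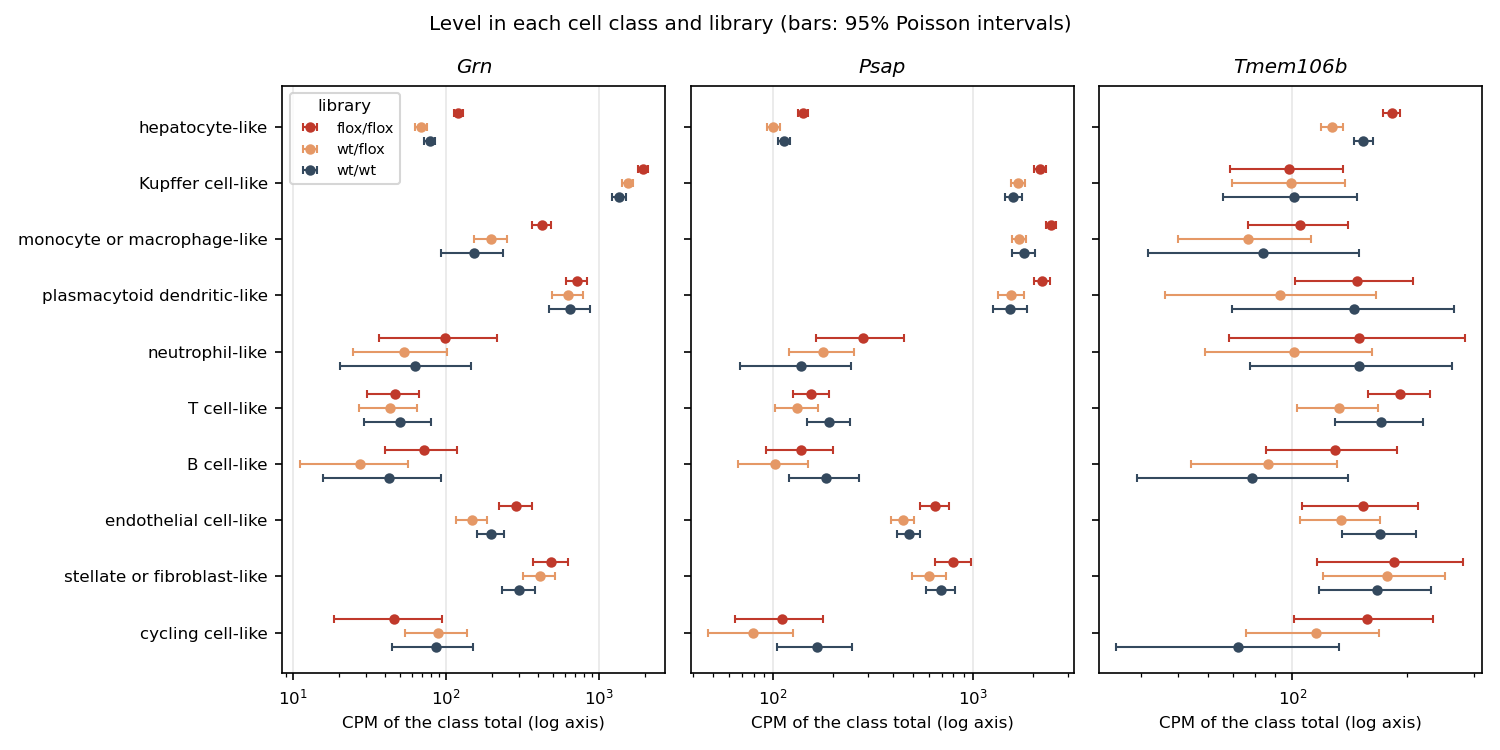
Level of Grn, Psap and Tmem106b as CPM of the class total (log axis) in each of 10 cell classes, with the libraries flox/flox, wt/flox and wt/wt from top to bottom in each class and 95% Poisson intervals as bars. Grn peaks in Kupffer cell-like barcodes (1955, 1546 and 1364 CPM), Psap is about level across Kupffer, monocyte or macrophage and plasmacytoid dendritic cell-like barcodes, and Tmem106b shows no such peak.

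**Figure D2:**
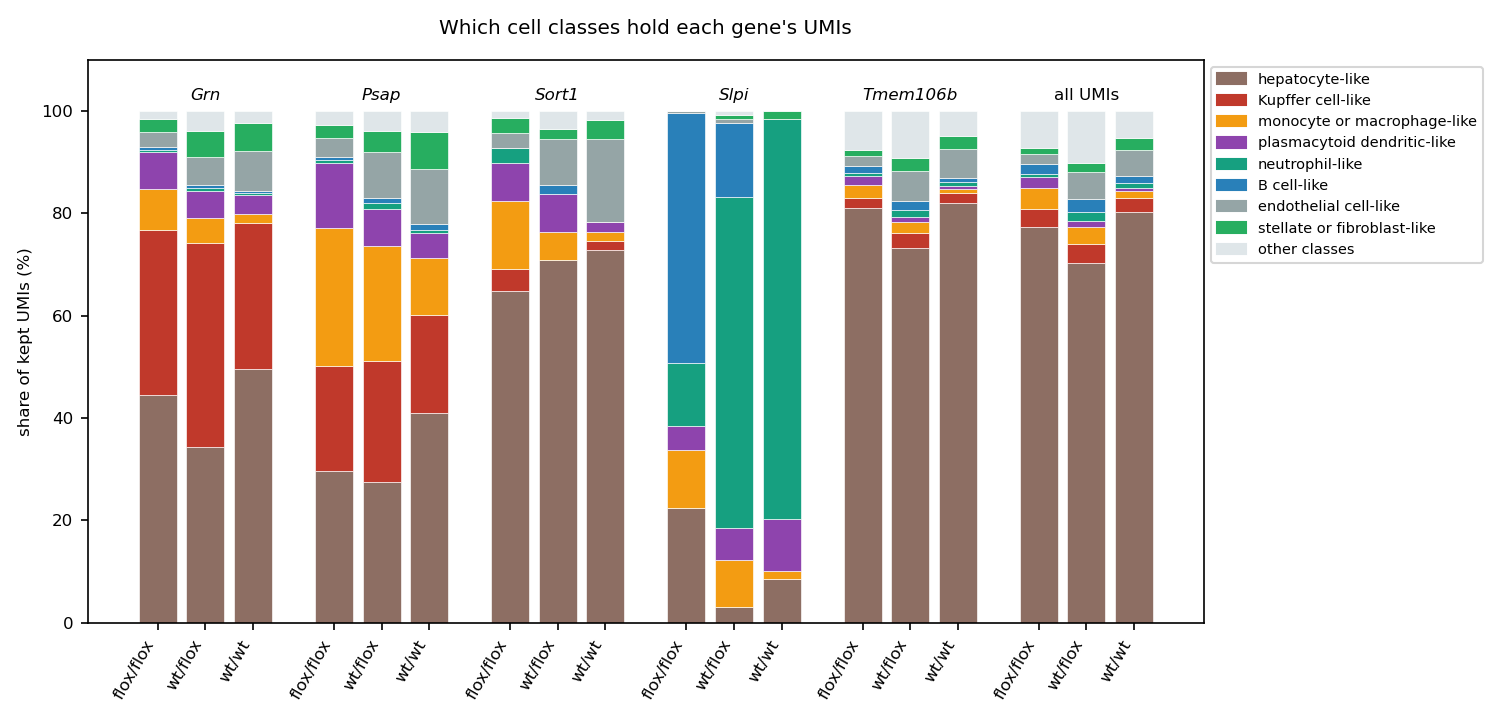
Share of the kept UMIs of each member, and of all UMIs, held by each cell class (stacked bars, %), with the bars flox/flox, wt/flox and wt/wt from left to right for each gene. Kupffer cell-like barcodes hold 32.2%, 39.9% and 28.7% of Grn UMIs, and the Slpi bars change most between libraries, with 48.7%, 14.6% and 0% in B cell-like barcodes.

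Between libraries, hepatocyte-like Grn was highest in the library labelled flox/flox. On the log2 scale flox/flox stood at 0.62 (0.48 to 0.77) relative to wt/wt and 0.82 (0.66 to 0.98) relative to wt/flox, while wt/flox stood at -0.19 (-0.37 to -0.02) relative to wt/wt. The level in flox/flox was above the others at each barcode depth. Barcodes of 500 to under 1000 UMIs had 112 CPM in flox/flox, 71.8 CPM in wt/flox and 73.7 CPM in wt/wt. Those of 1000 to under 2000 UMIs had 128, 66.0 and 92.3 CPM, and those of 2000 or more UMIs 133, 45.1 and 28.6 CPM. The deepest barcodes held only 135, 11 and 9 Grn UMIs, with intervals of 22.5 to 80.6 CPM in wt/flox and 13.1 to 54.3 CPM in wt/wt. The 12 Kupffer cell markers summed to 135.3 CPM in hepatocyte-like barcodes of flox/flox, 95.5 CPM in wt/flox and 77.6 CPM in wt/wt, with all 12 detected in each. At the rate of Clec4f, Cd5l and Vsig4, Kupffer RNA would account for 3.73%, 3.05% and 3.64% of the Grn level in these barcodes. Grn UMIs per UMI of those 3 markers numbered 7.73, 8.61 and 6.53 in hepatocyte-like barcodes, against 0.288, 0.263 and 0.238 in Kupffer cell-like barcodes.

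The size of this difference depended on which hepatocyte-like clusters were compared. In cluster 1, led by mitochondrial genes and Cyp2a4, Grn was at 181 CPM in flox/flox, 144 CPM in wt/flox and 131 CPM in wt/wt. That cluster held 31.2% of hepatocyte-like barcodes in flox/flox, 8.38% in wt/flox and 11.3% in wt/wt. In cluster 2, led by the interferon-induced genes Rsad2, Isg15 and Ifit1, Grn was at 92.9, 45.5 and 89.7 CPM. In cluster 3, led by nuclear RNAs such as Neat1, it was at 139, 69.3 and 130 CPM. Of the 7 hepatocyte-like clusters with at least 50 barcodes in each library, Grn was higher in the library labelled flox/flox in 7 over wt/wt and in 7 over wt/flox, and the counting interval lay above 0 in 2 and 3 of them. With these clusters counted equally Grn averaged 110 CPM in flox/flox, 71.3 CPM in wt/flox and 87.1 CPM in wt/wt, which set flox/flox on the log2 scale at 0.33 to wt/wt and 0.62 to wt/flox. Without the mitochondria-rich clusters 1 and 8 these log2 ratios were 0.36 and 0.59. The part of the mitochondrial share in the difference was not tested.

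**Figure D3:**
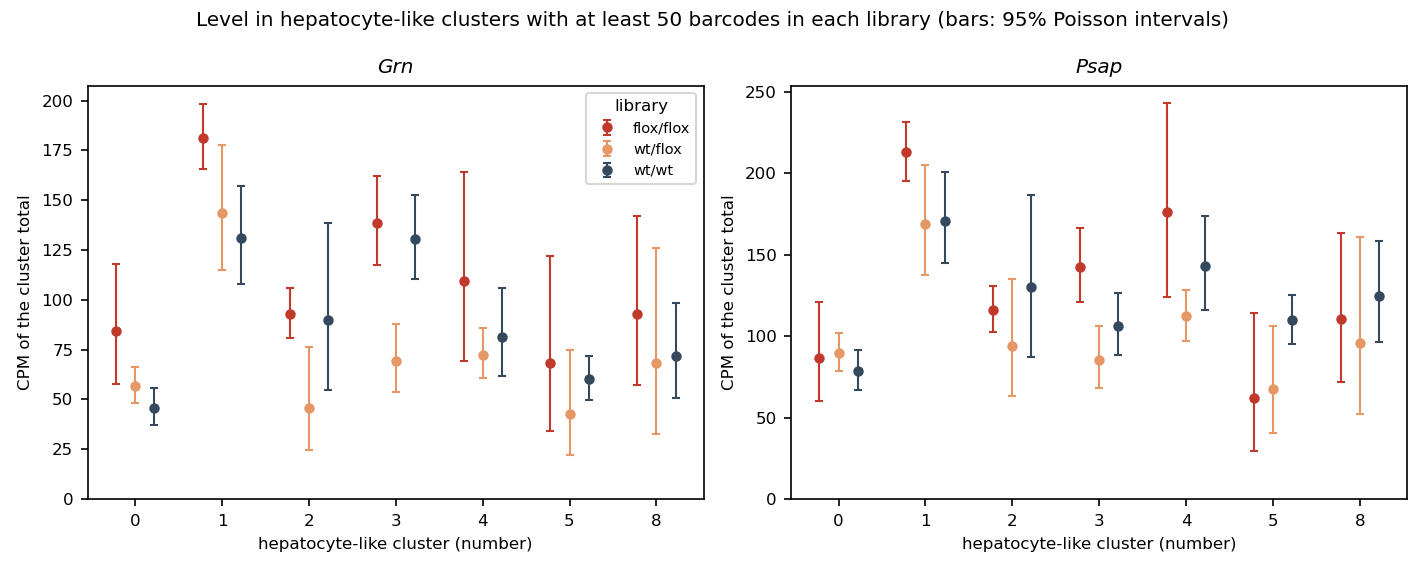
Level of Grn and Psap as CPM of the cluster total in the 7 hepatocyte-like clusters with at least 50 barcodes in each library, with flox/flox, wt/flox and wt/wt from left to right at each cluster number and 95% Poisson intervals as bars. Grn is highest in flox/flox in each cluster, by little in clusters 2 and 3 over wt/wt, whereas Psap is not.

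Grn in macrophage classes was also highest in the library labelled flox/flox. In Kupffer cell-like barcodes its log2 ratio to wt/wt was 0.52 (0.33 to 0.71), and that to wt/flox 0.34 (0.18 to 0.50), under the 1.5-fold line used here to count genes. In monocyte or macrophage-like barcodes it was 1.48 (0.81 to 2.22) to wt/wt, and 1.10 (0.69 to 1.53) to wt/flox, from 182, 67 and 20 UMIs in flox/flox, wt/flox and wt/wt. With the members among the variable genes the ratio to wt/flox was 0.48 (-0.055 to 1.02). The make-up of that class differed between libraries. Its 12 Kupffer cell markers summed to 2201 CPM in flox/flox (10 detected, Timd4 and Marco at 0), 845 CPM in wt/flox (10, Timd4 and Folr2 at 0) and 1560 CPM in wt/wt (9, Clec4f, Marco and Folr2 at 0). Its 12 conventional dendritic cell markers summed to 3349, 2578 and 4968 CPM, and its 14 monocyte or macrophage markers to 8117, 11525 and 7563 CPM, with all detected in each library. Their part in the Grn ratio was not tested. For endothelial cell-like barcodes the log2 ratio to wt/wt was 0.55 (0.07 to 1.02), and that to wt/flox 0.96 (0.46 to 1.46). In plasmacytoid dendritic cell-like barcodes the intervals held 0, at 0.15 (-0.34 to 0.66) to wt/wt, and 0.19 (-0.21 to 0.61) to wt/flox.

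**Figure D4:**
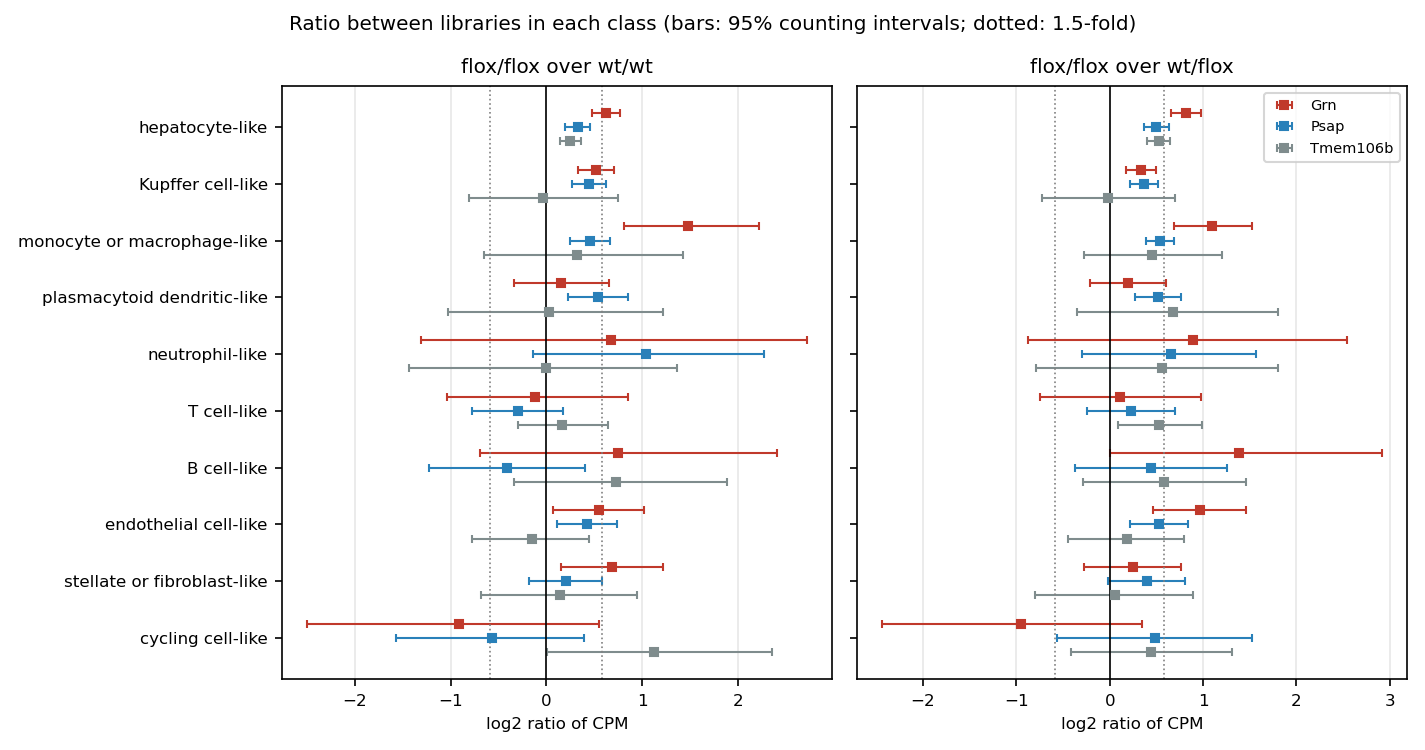
Log2 ratio of CPM of Grn, Psap and Tmem106b in each class, flox/flox over wt/wt on the left and flox/flox over wt/flox on the right, with 95% counting intervals as bars and dotted lines at 1.5-fold. The monocyte or macrophage-like class has the highest Grn ratio among classes with over 100 Grn UMIs in flox/flox, at 1.48 and 1.10. Psap ratios of the hepatocyte, Kupffer, monocyte or macrophage, plasmacytoid dendritic and endothelial cell-like classes lie between 0.33 and 0.54. In T cell-like, B cell-like, cycling, stellate cell or fibroblast-like and neutrophil-like barcodes Psap lies at -0.30, -0.41, -0.57, 0.21 and 1.04 over wt/wt. Over wt/flox it lies there at 0.23, 0.44, 0.48, 0.40 and 0.66.

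Psap (ENSMUSG00000004207, chromosome 10, 60277627 to 60302597, plus strand), the gene of the saposin precursor, was high in monocyte or macrophage, Kupffer and plasmacytoid dendritic cell-like barcodes and low in neutrophil-like ones. Monocyte or macrophage-like barcodes had 2461 CPM in flox/flox, 1698 CPM in wt/flox and 1796 CPM in wt/wt. Kupffer cell-like barcodes had 2170, 1684 and 1597 CPM and plasmacytoid dendritic cell-like barcodes 2223, 1559 and 1535 CPM. The counting intervals did not separate neighbours among these 3 classes in any library, and the highest and lowest of them were not compared directly. Neutrophil-like barcodes had 282, 179 and 137 CPM, and hepatocyte-like barcodes 142 CPM (134 to 150), 100 CPM (93.1 to 108) and 113 CPM (106 to 121). Hepatocyte-like barcodes held 29.7% of the Psap UMIs in flox/flox, 27.4% in wt/flox and 40.9% in wt/wt, and monocyte or macrophage-like barcodes 27.1%, 22.4% and 11.0%. Monocyte or macrophage-like barcodes numbered 301 in flox/flox, 260 in wt/flox and 95 in wt/wt.

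Psap was higher in the library labelled flox/flox in each of these classes. Its log2 ratio to wt/wt was 0.44 (0.27 to 0.62) in Kupffer cell-like, 0.46 (0.25 to 0.66) in monocyte or macrophage-like and 0.53 (0.23 to 0.85) in plasmacytoid dendritic cell-like barcodes. To wt/flox it was 0.37 (0.21 to 0.52), 0.54 (0.39 to 0.68) and 0.51 (0.27 to 0.76). For hepatocyte-like barcodes it was 0.33 (0.20 to 0.45) to wt/wt, and 0.50 (0.36 to 0.64) to wt/flox. Without the mitochondria-rich clusters 1 and 8 it was 0.06 (-0.11 to 0.22) to wt/wt, and 0.21 to wt/flox. Over wt/wt, 4 of the 7 hepatocyte-like clusters had more Psap in flox/flox, with the counting interval above 0 in 2, and over wt/flox 5 of 7, with the interval above 0 in 3. Within cluster 1 the log2 ratio to wt/wt was 0.32 (0.05 to 0.59), and within cluster 3 it was 0.42 (0.08 to 0.77). The part of the mix of clusters in the difference was not tested.

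Psap was higher in macrophage-like barcodes with a Grn UMI than in those without one, with 1 exception. Kupffer cell-like barcodes with a Grn UMI had 2355 CPM of Psap in flox/flox, 1787 CPM in wt/flox and 1684 CPM in wt/wt, and those without one had 1179, 1297 and 1261 CPM. Barcodes with a Grn UMI were also deeper, with medians of 1205, 1182 and 1111 UMIs against 931, 996 and 980.5 UMIs. Monocyte or macrophage-like barcodes with a Grn UMI had 3197 CPM of Psap in flox/flox, 2168 CPM in wt/flox and 1784 CPM in wt/wt, and those without one 1983, 1576 and 1799 CPM, so that wt/wt was the exception. Hepatocyte-like barcodes with a Grn UMI had 192, 111 and 124 CPM of Psap, against 134, 99.6 and 112 CPM in those without one. Across 30 points, the 10 classes in 3 libraries, Psap was the fourth of 8910 genes in likeness to Grn, with a Pearson correlation of 0.873 on log2(CPM + 10). Also among the top 5 were Ctsb, a lysosomal protease that can cut progranulin (0.967), Frmd4a (0.880) and Usp12 (0.869). Those most like Psap were Ctss, a lysosomal protease (0.909), Npc2, a lysosomal cholesterol carrier (0.905), and Asah1, acid ceramidase (0.902). The 30 points share libraries and free RNA, and these values are descriptions.

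Sort1 (ENSMUSG00000068747, chromosome 3, 108284082 to 108361511, plus strand), the progranulin receptor, was scarce in all classes. It had 68 UMIs in flox/flox, 55 in wt/flox and 55 in wt/wt over all kept barcodes, of which hepatocyte-like barcodes held 44, 39 and 40. Their level of 5.38 CPM (3.91 to 7.22) in flox/flox, 5.55 CPM (3.95 to 7.59) in wt/flox and 5.17 CPM (3.70 to 7.05) in wt/wt did not separate the libraries. The log2 ratio to wt/wt was 0.06 (-0.59 to 0.71), and that to wt/flox -0.04 (-0.70 to 0.62), so that changes of up to 1.5-fold would not be detectable at this depth. Kupffer cell-like barcodes, the class richest in Grn, had 3 Sort1 UMIs in flox/flox, 0 in wt/flox and 1 in wt/wt. In wt/flox a count of 3, the lowest used in ratios, would be 8.25 CPM there. Monocyte or macrophage-like barcodes had 9, 3 and 1 UMIs (20.9, 8.83 and 7.61 CPM) and plasmacytoid dendritic cell-like barcodes 5, 4 and 1 UMIs (22.4, 33.7 and 14.5 CPM). Neighbouring classes could not be put in order for Sort1 in any library. Against the hepatocyte-like level, monocyte or macrophage-like barcodes stood at 3.89-fold in flox/flox (1.67 to 8.07). Plasmacytoid dendritic cell-like ones stood at 4.17-fold in flox/flox (1.29 to 10.5) and 6.07-fold in wt/flox (1.58 to 16.8). Endothelial cell-like ones stood at 3.61-fold in wt/wt (1.54 to 7.56). Each rests on 9 or fewer UMIs of that class, and all other such intervals held 1. Hepatocyte-like barcodes held 64.7%, 70.9% and 72.7% of the Sort1 UMIs, next to 77.3%, 70.3% and 80.2% of all UMIs.

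Slpi (ENSMUSG00000017002, chromosome 2, 164354070 to 164389095, minus strand) had the most uneven pattern. In wt/flox and wt/wt it was mainly a neutrophil transcript, as known for this inhibitor. Neutrophil-like barcodes had 381 CPM (241 to 572; 23 UMIs) in flox/flox, 500 CPM (399 to 619; 84 UMIs) in wt/flox and 574 CPM (420 to 766; 46 UMIs) in wt/wt. The log2 ratio of flox/flox to wt/wt was -0.59 (-1.38 to 0.16), and that to wt/flox -0.39 (-1.13 to 0.29), so that the libraries were not separated. Yet this class held 12.3% of the Slpi UMIs in flox/flox, 64.6% in wt/flox and 78.0% in wt/wt. Neutrophil-like barcodes numbered 69, 187 and 95. Kupffer cell-like and T cell-like barcodes had 0 Slpi UMIs in each library, which allows up to 8.18, 8.25 and 11.6 CPM in the Kupffer cell-like class.

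The most Slpi UMIs in the library labelled flox/flox lay in a few B cell-like barcodes. The class had 91 UMIs in 6 barcodes in flox/flox, 19 in 3 barcodes in wt/flox and 0 in wt/wt, or 435, 74.6 and 0 CPM. Of the 91 UMIs in flox/flox, 1 barcode held 73 and another 13, and without the highest barcode of each library the class had 18 UMIs in flox/flox, 10 in wt/flox and 0 in wt/wt. All 6 of these barcodes in flox/flox and all 3 in wt/flox had at least 3 UMIs of plasma cell markers. Barcodes of that kind numbered 35 in flox/flox, 24 in wt/flox and 13 in wt/wt, and the B cell-like barcodes below that line had 0 Slpi UMIs in each library. The 9 plasma cell markers summed to 28029 CPM in the B cell-like class of flox/flox, 9817 CPM in wt/flox and 9942 CPM in wt/wt.

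In hepatocyte-like barcodes Slpi was rare and higher in the library labelled flox/flox. It had 42 UMIs in 32 barcodes in flox/flox, 4 in 4 barcodes in wt/flox and 5 in 5 barcodes in wt/wt, or 5.14, 0.57 and 0.65 CPM. Its log2 ratio to wt/wt was 2.99 (1.65 to 4.69), and that to wt/flox 3.17 (1.71 to 5.12). Barcodes of 2000 or more UMIs, 374 of the 7752 in flox/flox, held 23 of the 42 UMIs there, at 22.6 CPM (14.3 to 34.0) in flox/flox, against 0 UMIs in wt/flox and 0 in wt/wt. Hepatocyte-like barcodes of this depth numbered 99 in wt/flox and 118 in wt/wt. At 500 to under 1000 UMIs the levels were 2.54, 0.73 and 0.43 CPM, and at 1000 to under 2000 UMIs 2.80, 0.37 and 1.09 CPM. The 12 neutrophil markers summed to 2.0, 4.6 and 0.9 CPM in hepatocyte-like barcodes of flox/flox, wt/flox and wt/wt, with Ly6g, Camp, Ngp, Ltf and Retnlg at 0 in each.

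Deep hepatocyte-like barcodes with Slpi in the library labelled flox/flox also held Spp1 and Sox9, chosen here after their values were seen. Spp1 encodes osteopontin and Sox9 a transcription factor of bile duct cells. Spp1 was at 5229 CPM (4622 to 5894) in the 14 barcodes of at least 2000 UMIs with a Slpi UMI, against 420 CPM (380 to 463) in the 360 without one, and 10 of the 14 had a Spp1 UMI. Sox9 was at 390 CPM (238 to 603) and 41.4 CPM (29.6 to 56.4) in the same barcodes. Grn did not share this pattern, at 78.0 CPM (21.3 to 200, from 4 UMIs) with Slpi and 136 CPM (113 to 161) without. Alb, a hepatocyte marker, was lower in those with Slpi, at 9560 CPM (8733 to 10446) against 17330 CPM (17068 to 17594). Barcodes of this depth without Slpi had 11771 CPM of Alb in wt/flox and 17801 CPM in wt/wt. Of the 12 cholangiocyte markers, Krt18 had 1143 UMIs, Tstd1 705, Sox9 199, Pkhd1 38, Cldn7 6, Krt7 1 and Sprr1a 1 in hepatocyte-like barcodes of flox/flox. Among those at 0 were Krt19, Epcam and Cftr, which had 3, 8 and 1 UMIs in wt/flox and 2, 4 and 1 in wt/wt, and Cldn4, which was at 0 in each library. The list summed to 256.0 CPM in flox/flox, 249.5 CPM in wt/flox and 231.4 CPM in wt/wt, and 6 of the 32 flox/flox barcodes with Slpi had at least 3 UMIs of them. In 5 of the 32 there were at least 3 UMIs of plasma cell markers, and 16 of the 32 lay in cluster 1, which held 31.2% of hepatocyte-like barcodes in flox/flox. The part of these in the Slpi difference was not tested.

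**Figure D5:**
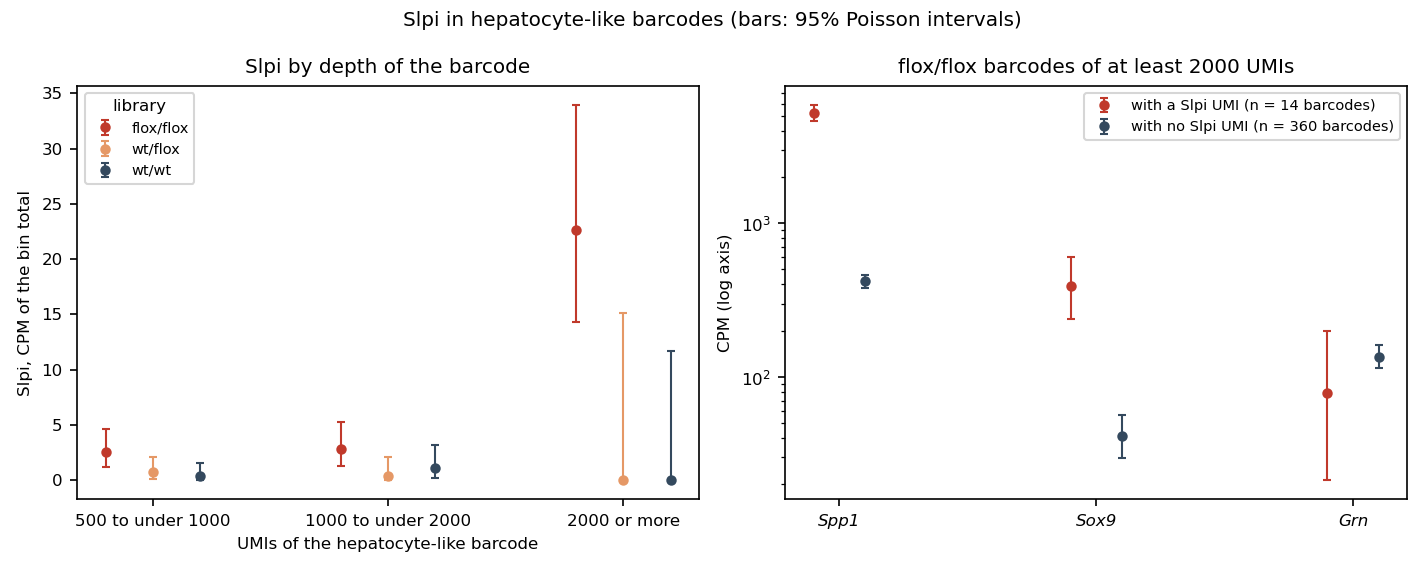
Left, Slpi as CPM in hepatocyte-like barcodes by depth of the barcode (flox/flox, wt/flox and wt/wt from left to right); right, Spp1, Sox9 and Grn as CPM (log axis) in flox/flox barcodes of at least 2000 UMIs with a Slpi UMI (n = 14) and with none (n = 360). Bars are 95% Poisson intervals; Slpi stands at 22.6 CPM in the deepest flox/flox barcodes and at 0 in those of wt/flox and wt/wt.

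Tmem106b (ENSMUSG00000029571, chromosome 6, 13069759 to 13089269, plus strand) had no peak in the macrophage classes. Hepatocyte-like barcodes had 182 CPM (173 to 192) in flox/flox, 127 CPM (119 to 136) in wt/flox and 153 CPM (145 to 162) in wt/wt, and Kupffer cell-like barcodes 98.2, 99.1 and 101 CPM. Kupffer cell-like barcodes stood at 0.54 of the hepatocyte-like level in flox/flox (0.38 to 0.75), 0.78 in wt/flox (0.54 to 1.09) and 0.66 in wt/wt (0.43 to 0.97). Neighbouring classes were not separated in any library. Free hepatocyte RNA at the rate of Alb would give 67.7 CPM in flox/flox, 57.2 CPM in wt/flox and 68.8 CPM in wt/wt of the Kupffer cell-like level, and 134, 96.7 and 112 CPM of the 149, 101 and 150 CPM in neutrophil-like barcodes. In wt/wt it would give more than was measured in B cell-like barcodes (91.8 against 78.1 CPM) and in cycling cell-like barcodes (111 against 72.0 CPM). Levels at or near these values are read as background. T cell-like barcodes stood further above it, with 191, 132 and 170 CPM against 87.9, 76.7 and 93.0 CPM from free RNA. Hepatocyte-like barcodes of flox/flox, by its label, had a log2 ratio to wt/wt of 0.25 (0.14 to 0.36) and to wt/flox of 0.52 (0.40 to 0.64), and for wt/flox to wt/wt it was -0.27 (-0.40 to -0.15). The direction was the same in 7 of 7 hepatocyte-like clusters against each of the other libraries. The counting interval lay above 0 in 3 of them over wt/wt and in 5 over wt/flox. Clusters of the same libraries are not replicates. In Kupffer cell-like barcodes the log2 ratio to wt/wt was -0.04 (-0.81 to 0.75), and that to wt/flox -0.01 (-0.72 to 0.69).

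The members were set against all genes measured in the same class by a 1.5-fold line. In hepatocyte-like barcodes 2 of the 5 members, Grn and Slpi, were at least 1.5-fold higher in the library labelled flox/flox over wt/wt, where 14.3% of the 11341 genes measured (20 UMIs over the 3 libraries) were, and 0 were lower, where 7.37% of genes were. Over wt/flox the same 2 members were higher and 0 lower, with 13.3% and 9.78% of genes. Slpi, with 42, 4 and 5 UMIs in flox/flox, wt/flox and wt/wt, met the limit of 20 UMIs only through flox/flox. With so few UMIs in the other libraries it could only come out higher there, so that its place in these counts carries no weight. In wt/flox over wt/wt 0 members were higher and 0 lower, with 9.97% and 7.02% of genes. The members had a median log2 ratio of 0.33 to wt/wt and 0.52 to wt/flox, where all genes measured had 0.08 and 0.04. In Kupffer cell-like barcodes 3 members were measured (Grn, Psap and Tmem106b). None of them was 1.5-fold higher or lower over wt/wt, where 19.4% and 13.9% of the 6699 genes measured were, nor over wt/flox, where 16.7% and 14.9% were.

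Other genes of the pathway were counted in lists by role. In hepatocyte-like barcodes 11 genes listed as progranulin receptors or carriers were measured. Of these, 1 was higher and 0 lower in the library labelled flox/flox over wt/wt, beside 14.3% and 7.37% of all genes. Over wt/flox 4 (Egfr, Cd74, Tnfrsf1a and Tnfrsf1b) were higher and 0 lower, beside 13.3% and 9.78% of all genes. In wt/flox over wt/wt 0 were higher and 4 lower (Egfr, Cd74, Tnfrsf1b and Epha2), beside 9.97% and 7.02%. Thus 3 of the 4 genes higher over wt/flox were also low in wt/flox against wt/wt. Egfr (ENSMUSG00000020122, chromosome 11, 16752203 to 16918158, plus strand), the receptor named in the series title, passed in both. Its level was 581 CPM in flox/flox, 232 CPM in wt/flox and 373 CPM in wt/wt, with log2 ratios of flox/flox to wt/wt of 0.64 (0.57 to 0.71) and to wt/flox of 1.32 (1.24 to 1.40). In wt/flox it was lower than in wt/wt, by -0.68 (-0.77 to -0.59). In Kupffer cell-like barcodes Egfr stood at 183, 105 and 198 CPM. Hepatocyte RNA at the rate of Alb was estimated at 37.1%, 45.0% and 44.9% of their UMIs. Such a part of the hepatocyte-like Egfr level would be of similar size to the Egfr level in Kupffer cell-like barcodes. The latter is thus not read as Egfr of Kupffer cells, and the part of free RNA in it was not tested. Cd74, the invariant chain of class II antigen presentation, was also placed on this list. It was lower in Kupffer cell-like barcodes of flox/flox, at 1134 CPM, against 2218 CPM in wt/flox and 2906 CPM in wt/wt. The log2 ratio to wt/wt was -1.36 (-1.53 to -1.18) and to wt/flox -0.97 (-1.14 to -0.79). Of 8 measured genes of the VPS10 receptor family and its sorting machinery, 0 were 1.5-fold higher or lower over either library in hepatocyte-like barcodes. The shares of all genes just given for these comparisons stand beside this count too.

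Proteases and lysosomal partners were counted in the same way. Of 10 measured proteases that cut progranulin or prosaposin, 3 were higher and 1 lower in the library labelled flox/flox over wt/wt in hepatocyte-like barcodes (Mmp14, Ctsb and Lgmn against Adamts7), and 3 and 1 over wt/flox (Prtn3, Ctsl and Lgmn against Adamts7). Lgmn, the lysosomal protease legumain, was higher over both, with 15.9 CPM in flox/flox, 9.82 CPM in wt/flox and 8.15 CPM in wt/wt and a log2 ratio of flox/flox to wt/wt of 0.96 (0.52 to 1.42) and to wt/flox of 0.70 (0.26 to 1.14). Prtn3, the neutrophil protease 3, had 16, 3 and 18 UMIs, and Elane, neutrophil elastase, 0, 2 and 0 UMIs in these barcodes. Protease inhibitors were taken from a list of WAP domain genes that also held Spint1 and Spint2, which lack that domain. Of 5 measured, 2 were higher and 0 lower over wt/wt (Slpi and Spint2), and 1 and 1 over wt/flox (Slpi against Wfdc2). Here too Slpi met the UMI limit only through flox/flox. Of 16 measured saposin partners and lysosomal lipid enzymes, 3 were higher and 0 lower over wt/wt (with Gla and Asah1 among them), and 3 and 1 over wt/flox (with Asah1 and Npc1 among the higher, against Pla2g15). Asah1, acid ceramidase, was at 23.1, 12.4 and 14.1 CPM in flox/flox, wt/flox and wt/wt. Of 19 measured TMEM106 relatives and lysosomal membrane or proton pump genes, 4 were higher and 0 lower over wt/wt (Tmem106a, Cd63, Atp6ap2 and Laptm4a) and over wt/flox (Cd63, Atp6ap2, Tmem175 and Laptm5). Atp6ap2, an accessory subunit of the proton pump, was at 32.7, 20.8 and 19.7 CPM in flox/flox, wt/flox and wt/wt. Of 9 measured regulators of lysosomal genes and genes known to respond to progranulin loss, 0 were higher and 0 lower over wt/wt, and 2 (Flcn and Lgals3) and 0 over wt/flox. The shares of higher genes in these lists are to be read beside 14.3% and 13.3% of all genes. Those of lower genes are to be read beside 7.37% over wt/wt and 9.78% over wt/flox. Of 8 proteases measured in Kupffer cell-like barcodes, 3 (Ctsb, Ctss and Mmp12) were higher and 0 lower over wt/wt. Over wt/flox 1 (Ctsl) was higher and 0 lower. Of all genes measured there, 19.4% were higher and 13.9% lower over wt/wt, and 16.7% and 14.9% over wt/flox. Ctsb, cathepsin B, stood at 4578 CPM in flox/flox, 3448 CPM in wt/flox and 2926 CPM in wt/wt in Kupffer cell-like barcodes.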

How the data were processed

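UMI counts for each gene in each barcode were deposited, written by Cell Ranger 6.1.1 per the file headers; Seurat and the mm10 build are named in the submitters' processing notes. Each library holds exactly 10000 barcodes, so barcodes were chosen by number before deposit, and whether reads were downsampled is not given in the sources used here. Depth was 9744380 to 10756790 UMIs a library. Barcodes below 500 UMIs or 250 genes, or above 40% mitochondrial UMIs, were left out. Scrublet called 0 doublets and was taken as not having worked, so doublets remain.

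Counts were scaled to 10000, log-transformed and clustered in scanpy 1.11.5 (leidenalg 0.10.2, scikit-learn 1.9.0, pandas 2.3.3, scipy 1.17.1, numpy 2.4.6, Python 3.11.15) with 2000 variable genes that left out the members, 30 components, 15 neighbours and resolution 1. Scaling of genes to unit variance (limit 10) was added after seeing the data, because without it immune classes merged. A cluster was named X-like from at least 3 markers at 4-fold and in 5% of its barcodes, with 1 among its 10 leading genes. The members, lists and thresholds were chosen with earlier results of these data known.

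UMIs were summed per class and library and divided by the class total (CPM). CPM have exact Poisson, shares Clopper-Pearson and ratios exact conditional binomial intervals at 95%. In ratios counts under 3 were set to 3. Classes with at least 50 barcodes in every library were compared, which left out erythroid cell-like barcodes. No test was made, since each genotype has 1 library. PCR copies were collapsed by UMI, so counts are molecules, and intervals cover counting error only. Free RNA was estimated from Alb, or from Clec4f, Cd5l and Vsig4. Named pathway genes were at least 1.5-fold apart in the same direction against both other libraries, with intervals leaving out 0 and at least 50 UMIs; up to 3 per list were taken, and other names beside counts of 5 or fewer were added after their values were seen. Some genes counted in the lists are not reported here by name. Likeness was the Pearson correlation of log2(CPM + 10) among genes with at least 200 UMIs. The ratio code was tested on simulated data. Gene positions are from GENCODE M21 and promoters from RefSeq. Figures were drawn with matplotlib 3.10.9. Alternatives changed the UMI and mitochondrial limits, resolution, clustering genes, class rule, scaling and free RNA.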

Additional observations from a re-analysis of the deposited data

How the results depend on the processing

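No paired analysis was possible with 1 library per genotype. Of 845 alternatives to 76 results, 750 stayed within the reported counting interval and 93 moved beyond it. The other 2 reversed ratios of at least 1.5-fold, of Psap in neutrophil-like barcodes. With classes assigned by markers per barcode the log2 ratio was -0.049 to wt/wt and -0.81 to wt/flox, against 1.04 and 0.66. Sign changes of smaller ratios are within the 750 and 93. Another 70 had under 20 UMIs and gave no value. The cause of the changes below was not tested.

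With at least 1000 UMIs a barcode, hepatocyte-like barcodes held 35.7%, 21.2% and 37.5% of Grn UMIs in flox/flox, wt/flox and wt/wt, and Kupffer cell-like ones 35.1%, 47.3% and 35.5%. With at least 2000 UMIs the hepatocyte-like share was 14.7% in wt/flox and 15.8% in wt/wt, and the Kupffer cell-like share 21.8% in flox/flox and 33.3% in wt/wt. Without the deepest 5% of barcodes the hepatocyte-like share was 37.6% in wt/flox and 53.3% in wt/wt, and the Kupffer cell-like share 34.2% in flox/flox. In flox/flox the hepatocyte-like share was 41.5% with at most 20% mitochondrial UMIs and 39.3% with markers per barcode. The Kupffer cell-like share was 36.7% in flox/flox and 25.3% in wt/wt at resolution 0.5, where the monocyte or macrophage-like class merged into it, 28.6%, 37.2% and 23.9% in flox/flox, wt/flox and wt/wt at resolution 2, and 24.6% in wt/wt with the members among the variable genes. The fold of Grn in Kupffer over hepatocyte-like barcodes was 10.3 in flox/flox and 30.5 in wt/wt at 2000 UMIs, 9.08, 12.5 and 11.8 in flox/flox, wt/flox and wt/wt at resolution 0.5, and 13.5 in flox/flox with the members among the variable genes.

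Log2 ratios of the library labelled flox/flox moved as follows. At 2000 UMIs hepatocyte-like Grn had 2.22 to wt/wt and 1.56 to wt/flox, and at 1000 UMIs 1.01 to wt/flox. Psap there had 0.50 to wt/wt at 1000 UMIs, and at 2000 UMIs 1.89 to wt/wt and 1.40 to wt/flox. At 2000 UMIs these rest on 135, 11 and 9 Grn UMIs and 132, 12 and 11 Psap UMIs in hepatocyte-like barcodes of flox/flox, wt/flox and wt/wt. Slpi there was at least 1.25 over wt/wt and at least 0.88 over wt/flox at 2000 UMIs, set against 3 counts because both other libraries were at 0, and 1.36 over wt/flox with markers per barcode. In Kupffer cell-like barcodes Grn over wt/wt was 0.24 at resolution 0.5 and 0.30 with the members among the variable genes, and Psap over wt/wt was 0.77 at 2000 UMIs, 0.71 with the members among the variable genes and 0.26 with free RNA taken away. Grn over wt/flox there was 0.16 with the members among the variable genes, 0.14 with genes unscaled and 0.086 with free RNA taken away, and Psap over wt/flox 0.64 at 2000 UMIs, 0.58 with the members among the variable genes and 0.12 with free RNA taken away. In monocyte or macrophage-like barcodes Grn over wt/flox was 1.55 at 2000 UMIs and 0.48 with the members among the variable genes. At 2000 UMIs the Psap ratio of these barcodes was 0.75 to wt/wt and 0.99 to wt/flox. It was 0.12 and 0.30 with the members among the variable genes, 0.22 and 0.23 with free RNA taken away, and 0.020 over wt/flox with markers per barcode. With free RNA taken away Tmem106b had -0.81 to wt/flox in Kupffer cell-like barcodes, and in monocyte or macrophage-like ones 1.81 to wt/wt and 1.26 to wt/flox. Alternatives chosen after seeing the data were genes left unscaled, clusters 1 and 8 left out, hepatocyte-like clusters counted equally, barcodes with bile duct markers left out and the highest Slpi barcode left out. Unscaled clustering gave Kupffer cell-like shares of Grn of 37.7% in flox/flox and 43.6% in wt/flox, a fold of 14.0 in flox/flox and a Psap ratio of 0.63 over wt/wt in Kupffer cell-like barcodes. Without clusters 1 and 8 the Grn fold in flox/flox was 21.1, the hepatocyte-like Grn ratios were 0.36 to wt/wt and 0.59 to wt/flox, and those of Psap 0.057 and 0.21. With clusters counted equally they were 0.33 and 0.62 for Grn, and 0.072 and 0.34 for Psap. At 2-fold, 1 of 5 members (Slpi) was higher in hepatocyte-like barcodes over wt/wt and wt/flox, beside 604 and 637 of 11341 genes. At 1.5-fold with at least 50 UMIs 2 were, beside 1222 and 1142 of 10052. At 2-fold the receptors, proteases and regulators had 0 and 1 higher. The inhibitor list had 1 and 1, the saposin list 2 and 0 and the TMEM106 list 2 and 2. With a pseudocount of 1, or at least 1000 UMIs a gene, Ctsb and Psap were among the 3 genes most like Grn. Counts limit Sort1 and Slpi most, with 55 to 68 and 59 to 187 UMIs a library.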

Other observations

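Slpi was also seen in a few monocyte or macrophage-like barcodes, with 21 UMIs in 7 barcodes in flox/flox, 12 in 12 barcodes in wt/flox and 1 in 1 barcode in wt/wt. In the library labelled flox/flox, 18 of the 21 Slpi UMIs lay in the 110 barcodes that also had a Grn UMI, at 106 CPM, against 11.5 CPM in the 191 barcodes without one. In wt/flox the levels were 42.8 CPM in 50 barcodes with Grn and 33.4 CPM in 210 without. The highest barcodes of flox/flox held 7 and 6 of the 21 Slpi UMIs. Genes whose class pattern was most like that of Slpi over the 30 points were Sorl1, a VPS10 receptor (Pearson correlation 0.787), Mxd1 (0.765) and the neutrophil granule gene Lcn2 (0.746). Those most like Tmem106b were Ptprg (0.755), Ccnl2 (0.660) and BC005561 (0.650), and those most like Sort1 were Rell1 (0.706), Relch (0.693) and Zc3h12c (0.690).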
